A study of Saccharomyces cerevisiae with 6 samples.

Results

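The genes described here encode Hsp90 and the proteins that dock on it in budding yeast. They were chosen by name as a fixed list of 10: HSC82, HSP82, STI1, CPR6, CPR7, AHA1, SBA1, HCH1, CNS1 and CDC37. Earlier results of these data were known when the list was chosen. All 10 were found by their systematic names among the 6362 gene features of the arrays, and they lie on 9 chromosomes. Total RNA was compared on 6 arrays of 2 colours, each of which set cells given 0.2 mM of compound 089 for 4 h beside untreated cells of its strain. The labels give 089 the chemical name of an ethylamide built on a bicyclic ring that holds oxygen and nitrogen. The parental strain was BY4742, a haploid of mating type alpha with the markers his3, leu2, lys2 and ura3, which all 3 strains share. BY4742derg6 carries erg6::kanMX4 and is called erg6Δ, and BY4742dsnq2 carries snq2::kanMX and is called snq2Δ. The product of ERG6 methylates sterols late in ergosterol synthesis, and Snq2 pumps drugs out across the plasma membrane. Treated and untreated cells were both held at 1000000000 cells per ml in rich medium with 2% glucose at pH 4.8 and 28 °C. A pair of arrays per strain came from biological replicates, per the series text. With Cy5 on the treated side of all 6 arrays, any bias of a gene towards that dye is part of its response.

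Hsp90 is a dimeric chaperone that uses ATP to act late in the folding of kinases, transcription factors and other clients. Yeast makes it from the constitutive gene HSC82 and the heat-inducible gene HSP82, and cells need at least 1 of them to live. Clients reach Hsp90 from Hsp70 through the adaptor Sti1, or, for many kinases, through Cdc37. Aha1 and its shorter relative Hch1 stimulate the Hsp90 ATPase, while Sba1, the yeast p23, binds the closed, ATP-bound dimer and slows it. The cyclophilins Cpr6 and Cpr7 and the essential protein Cns1 dock on the end of Hsp90 through tetratricopeptide repeats, as Sti1 does. Many of these genes are targets of the heat shock factor Hsf1.

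All values below are the deposited values read as log2 ratios of treated over untreated cells, so -1 is a halving. The sample titles and the dyes make that direction likely, yet no source states it, and under the opposite direction every sign would turn. The base 2 is not stated either. Replicate arrays correlated across genes at r = 0.713 in erg6Δ, 0.901 in the parental and 0.916 in snq2Δ. The lowest correlation between any 2 arrays was 0.0019, so some arrays were close to uncorrelated with each other. That value does not check the direction of any array. A ratio gives no level, and in a deletion strain both channels lack the gene, so the labels could not be checked. ERG6, which neither channel of the erg6Δ arrays should hold, read -0.65 and -0.85 there and passed the test at -0.75 ± 0.11 (SE, n = 2; adjusted p = 0.00347), as large a response as that of HSC82 in erg6Δ. That call was lost against a minimum change of 1.5-fold and held in the other alternatives (adjusted p from 0.00241 to 0.451), and what the ERG6 feature reads there was not tested. SNQ2 read 0.22 and 0.025 on snq2Δ arrays and did not pass. The median gene lay at -0.021 in the parental, -0.11 in erg6Δ and -0.027 in the snq2Δ response. Relative to its own median gene, each erg6Δ response below is therefore 0.11 higher. With centred arrays, 52.5% of the erg6Δ calls over all genes were higher, against 42.4% as deposited. Fewer cells of a kind and less RNA per cell cannot be told apart in these bulk samples.

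The Hsp90 genes and 3 of their partners had lower ratios under 089 in every strain. HSC82, HSP82, STI1, CPR6 and AHA1 fell in all 3 strains, 5 of 10 genes, against 4.56% of all genes that were called lower in all 3. These 5 also lay below 0 on all 6 arrays, as did 14.2% of all genes. None of the 10 was called higher in all 3 strains, against 3.43% of all genes. SBA1 and CDC37 were called in opposite directions in different strains, as were 23.9% of all genes. CPR7 passed in no strain.

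In the parental strain 8 of the 10 genes passed, 7 lower and 1 higher, against 54.0% of all genes, with 26.7% lower and 27.3% higher. Their median was -0.55, beside -0.021 for all genes. In erg6Δ 8 passed, 6 lower and 2 higher, against 54.7% of all genes (31.5% lower, 23.2% higher), and the median was -0.59. In snq2Δ 7 passed, 6 lower and 1 higher, against 51.5% of all genes (26.2% lower, 25.3% higher), and the median was -0.80. Without parental replicate 1 fewer of the 10 and fewer of all genes passed in the parental strain, and the median of the 10 was -0.44. Against a minimum change of 1.5-fold the calls that stayed were STI1 and SBA1 in the parental, SBA1 in erg6Δ, and STI1 and CPR6 in snq2Δ. With that setting 988, 612 and 857 of all 6362 genes were called in the parental, erg6Δ and snq2Δ responses.

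**Figure D1:**
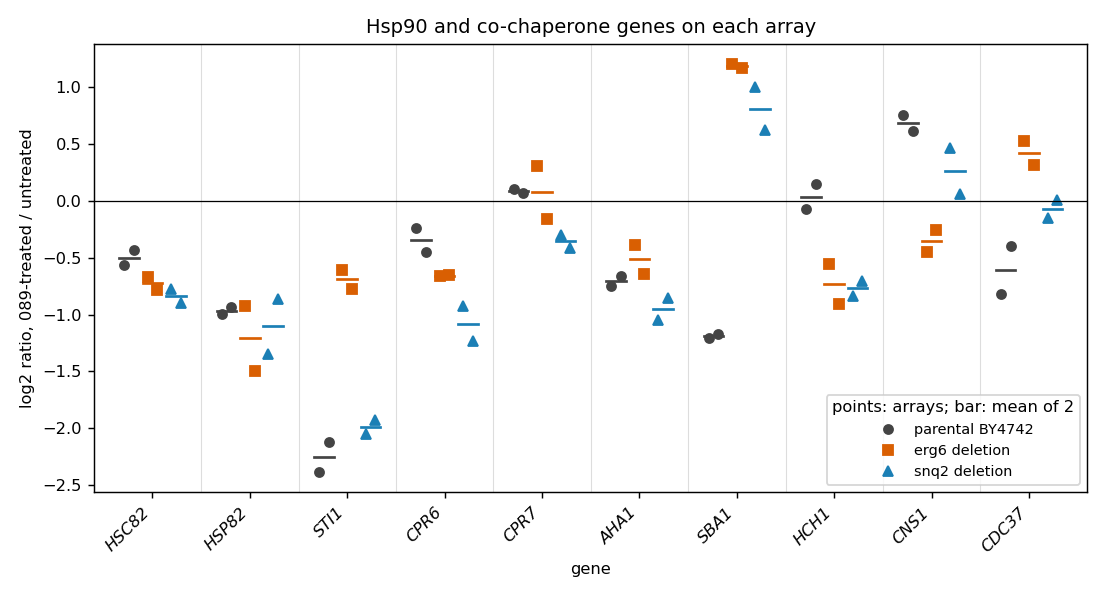
Log2 ratio of treated over untreated cells (y axis) for each of the 10 genes (x axis), with 1 point per array and a bar at the mean of the 2 arrays of a strain. HSC82, HSP82, STI1, CPR6 and AHA1 lie below 0 on all 6 arrays, and SBA1 lies near -1.2 in the parental strain and above 0.6 in the deletion strains.

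The constitutive gene HSC82 fell in every strain. It had replicate ratios of -0.56 and -0.43 in parental cells, -0.66 and -0.78 in erg6Δ and -0.78 and -0.90 in snq2Δ. The parental arrays were the least lowered and did not overlap with those of either deletion strain. Here and below, the share of all genes without such overlap was not counted. The fitted responses were -0.50 ± 0.09 (SE, n = 2; adjusted p = 0.00606), -0.72 ± 0.09 (adjusted p = 0.00208) and -0.84 ± 0.09 (adjusted p = 0.00119). The parental call did not survive leaving out parental replicate 1 (adjusted p = 0.0815, with all alternatives spanning 0.00457 to 1.00).

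Its heat-inducible paralog HSP82 fell in every strain as well, with a wider spread between replicates. It had replicate ratios of -0.998 and -0.93 in parental cells, -0.92 and -1.49 in erg6Δ and -1.34 and -0.87 in snq2Δ. The ranges of all 3 strains overlapped. The fitted responses were -0.97 ± 0.18 (SE, n = 2; adjusted p = 0.00678), -1.21 ± 0.18 (adjusted p = 0.00350) and -1.10 ± 0.18 (adjusted p = 0.00465). Treated cells thus gave 51.2%, 43.3% and 46.5% of the untreated signal. The parental call did not survive leaving out parental replicate 1 or 2 (adjusted p = 0.0692 and 0.0550, with alternatives spanning 0.00212 to 0.190). The snq2Δ call did not survive leaving out its replicate 1 (adjusted p = 0.0556, with alternatives spanning 0.000469 to 0.0915).

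HSP82 lay below HSC82 on 5 of the 6 arrays. The difference of their log2 ratios ran from -0.71 to 0.035 with a median of -0.47 and a mean of -0.41 ± 0.26 (SD, n = 6 arrays). The array on which HSP82 was not the lower was snq2Δ replicate 2. The paralogs are nearly identical in sequence, probe sequences were not analysed here, and how far each feature reads the other transcript was not tested.

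STI1, the adaptor that joins Hsp70 to Hsp90, fell the most of the 10 genes in the parental and snq2Δ strains. It had replicate ratios of -2.38 and -2.12 in parental cells, -0.60 and -0.77 in erg6Δ and -2.05 and -1.93 in snq2Δ. The erg6Δ arrays stood apart from the other 4 with no overlap. The parental response was -2.25 ± 0.10 (SE, n = 2; adjusted p = 0.000121), which left 21.0% of the untreated signal. That value had rank 10 from the lowest of 6362 genes. The snq2Δ response was -1.99 ± 0.10 (adjusted p = 0.000217), or 25.2% of untreated, at rank 133 from the lowest. The erg6Δ response was -0.69 ± 0.10 (adjusted p = 0.00381), or 62.1% of untreated, at rank 923. Of the STI1 responses, the erg6Δ call alone was lost against a minimum change of 1.5-fold (adjusted p = 0.706, with alternatives spanning 0.00332 to 0.706).

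The difference between strains in STI1 passed where erg6Δ cells were compared. Their response was higher than the parental by 1.57 ± 0.15 (SE; adjusted p = 0.000661) and higher than that of snq2Δ cells by 1.30 ± 0.15 (adjusted p = 0.00193). Both calls held in all 12 alternatives, but their size depended on the scaling. With quantile normalization the parental response of STI1 was -3.20 and the erg6Δ difference from it 2.49, against -2.25 and 1.57 as deposited. The snq2Δ response did not differ from the parental past the threshold, at 0.26 with a 95% confidence interval of -0.11 to 0.63. The same normalization moved that difference to 1.10 (adjusted p = 0.0380, with alternatives spanning 0.0380 to 1.00).

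Of the ATPase activators, AHA1 fell in every strain, while HCH1 fell in both deletion strains and did not pass in the parental. AHA1 had replicate ratios of -0.75 and -0.66 in parental cells, -0.39 and -0.64 in erg6Δ and -1.05 and -0.85 in snq2Δ. The snq2Δ arrays were the lowest, and those of the other strains ran from -0.75 to -0.39. Its responses were -0.70 ± 0.10 (SE, n = 2; adjusted p = 0.00323), -0.51 ± 0.10 (adjusted p = 0.00998) and -0.95 ± 0.10 (adjusted p = 0.00135). The erg6Δ call was lost without its replicate 2 (adjusted p = 0.0664) and in a fit to that strain alone (adjusted p = 0.0673, with alternatives spanning 0.00917 to 1.00).

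HCH1 had replicate ratios of -0.069 and 0.15 in parental cells, -0.56 and -0.90 in erg6Δ and -0.84 and -0.70 in snq2Δ. The parental arrays lay around 0 and above all 4 arrays of the deletion strains. The parental response of 0.039 had a 95% confidence interval of -0.26 to 0.34 and did not pass. HCH1 fell in erg6Δ (-0.73 ± 0.12, SE, n = 2; adjusted p = 0.00479) and in snq2Δ (-0.77 ± 0.12; adjusted p = 0.00410). The snq2Δ call did not survive leaving out its replicate 1 (adjusted p = 0.0509, with alternatives spanning 0.000899 to 0.380). HCH1 minus AHA1 was 0.68 and 0.80 on the parental, -0.17 and -0.26 on erg6Δ, and 0.21 and 0.15 on snq2Δ arrays.

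SBA1, which slows the Hsp90 ATPase, moved in opposite directions in the parental and the deletion strains. It had replicate ratios of -1.21 and -1.17 in parental cells, 1.20 and 1.17 in erg6Δ and 1.00 and 0.62 in snq2Δ. All 4 deletion arrays lay above 0 and both parental arrays lay below -1. SBA1 fell by 1.19 ± 0.11 (SE, n = 2; adjusted p = 0.000702) in the parental strain, to 43.8% of untreated. It rose by 1.19 ± 0.11 (adjusted p = 0.00104) in erg6Δ, to 227% of untreated, and by 0.81 ± 0.11 (adjusted p = 0.00277) in snq2Δ, to 176%. The snq2Δ call was lost against a minimum change of 1.5-fold (adjusted p = 0.228, with alternatives spanning 0.00140 to 0.228).

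The strain difference in SBA1 was the largest among the 10 genes in both comparisons with the parental strain. The response was higher than the parental by 2.38 ± 0.16 (SE; adjusted p = 0.000294) in erg6Δ, a 5.20-fold difference at rank 49 from the highest of 6362 genes. It was higher by 2.00 ± 0.16 (adjusted p = 0.00101) in snq2Δ, a 4.01-fold difference at rank 83 from the highest. These 2 differences share the parental arrays. Both calls held in all 12 alternatives. Between the deletion strains the difference of 0.37 did not pass (95% confidence interval -0.022 to 0.77), except without snq2Δ replicate 1 (adjusted p = 0.0415, with alternatives spanning 0.0415 to 1.00).

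Of the cyclophilins, CPR6 fell in every strain and CPR7 passed in none. CPR6 had replicate ratios of -0.24 and -0.45 in parental cells, -0.66 and -0.65 in erg6Δ and -0.93 and -1.23 in snq2Δ. The strains did not overlap, with the parental arrays nearest 0 and the snq2Δ arrays lowest. Its responses were -0.34 ± 0.11 (SE, n = 2; adjusted p = 0.0436), -0.66 ± 0.11 (adjusted p = 0.00514) and -1.08 ± 0.11 (adjusted p = 0.00106). The parental call was lost when parental replicate 1 (adjusted p = 0.107) or 2 (adjusted p = 0.316) was left out and with centred arrays (adjusted p = 0.0571, with alternatives spanning 0.0223 to 1.00). The snq2Δ call held in all 12 alternatives.

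CPR7 had replicate ratios of 0.11 and 0.075 in parental cells, 0.31 and -0.16 in erg6Δ and -0.30 and -0.41 in snq2Δ. Its parental ratios lay just above 0, those of erg6Δ on both sides of it, and those of snq2Δ were the lowest. Its responses had 95% confidence intervals of -0.23 to 0.41, -0.25 to 0.40 and -0.68 to -0.033, and the last had an adjusted p of 0.0658. That response passed with quantile normalization (adjusted p = 0.0434), in a fit to that strain alone (0.0278) and without either erg6Δ array (0.0180 each, with alternatives spanning 0.0180 to 1.00). CPR7 lay above CPR6 on all 6 arrays, by 0.35 to 0.97 with a mean of 0.63 ± 0.23 (SD, n = 6 arrays).

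CNS1 and CDC37, the essential co-chaperones, went opposite ways in the parental strain. CNS1 had replicate ratios of 0.75 and 0.62 in parental cells, -0.45 and -0.25 in erg6Δ and 0.47 and 0.065 in snq2Δ. It rose in the parental strain by 0.69 ± 0.13 (SE, n = 2; adjusted p = 0.00684), which did not pass without parental replicate 1 (adjusted p = 0.0798, with alternatives spanning 0.00559 to 0.741). The erg6Δ response of -0.35 ± 0.13 (adjusted p = 0.0616) and the snq2Δ response of 0.27 ± 0.13 (adjusted p = 0.130) did not pass. The erg6Δ response passed without either snq2Δ array (adjusted p = 0.0453 each, with alternatives spanning 0.0453 to 1.00). CNS1 was the 1 gene of the 10 called higher in the parental strain.

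CDC37 had replicate ratios of -0.82 and -0.40 in parental cells, 0.53 and 0.32 in erg6Δ and -0.15 and 0.013 in snq2Δ. The strains did not overlap, with the parental arrays lowest and the erg6Δ arrays highest. It fell in the parental strain by 0.61 ± 0.13 (SE, n = 2; adjusted p = 0.0117), which did not pass without parental replicate 1 (adjusted p = 0.125, with alternatives spanning 0.00925 to 1.00). It rose in erg6Δ by 0.42 ± 0.13 (adjusted p = 0.0395). That rise was lost in 7 of 12 alternatives, among them those without replicate 1 (adjusted p = 0.199) or 2 (0.0610) of that strain and without either snq2Δ array (0.0705 each, with alternatives spanning 0.0193 to 1.00). The snq2Δ response of -0.067 ± 0.13 did not pass.

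**Figure D2:**
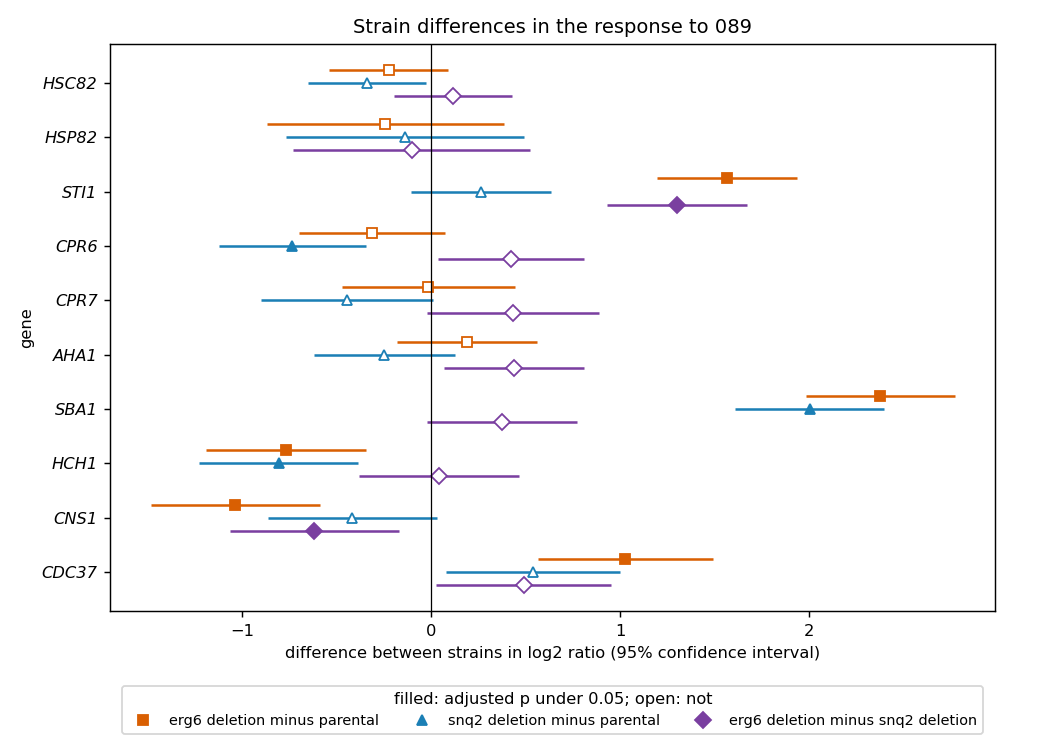
Difference between strains in the log2 ratio (x axis) for each gene (y axis), with lines for 95% confidence intervals of the fit, filled marks for an adjusted p under 0.05 and open marks otherwise. SBA1 at 2.38 and 2.00 and STI1 at 1.57 lie farthest from 0, while every interval of HSP82 spans 0.

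Compared with the parental strain, the response of erg6Δ was higher for SBA1, STI1 and CDC37 and lower for CNS1 and HCH1. These 5 of 10 compare with 56.8% of all genes called, 25.4% higher and 31.4% lower, so the share among the 10 was near the background. CDC37 differed by 1.03 ± 0.18 (SE; adjusted p = 0.00582), CNS1 by -1.04 ± 0.18 (adjusted p = 0.00504) and HCH1 by -0.77 ± 0.17 (adjusted p = 0.0121). For these 3 genes the arrays of the 2 strains did not overlap, and the share of all genes without overlap was not counted. The HCH1 call did not survive leaving out parental replicate 2 (adjusted p = 0.0702, with alternatives spanning 0.00686 to 0.386).

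Compared with the parental strain, the snq2Δ response was higher for SBA1 and lower for HCH1 and CPR6, 3 of 10 against 39.2% of all genes (16.4% higher, 22.8% lower). HCH1 differed by -0.81 ± 0.17 (SE; adjusted p = 0.0159) and CPR6 by -0.74 ± 0.16 (adjusted p = 0.0164). The HCH1 call was lost without either parental array (adjusted p = 0.0532 and 0.0892) and without either snq2Δ array (0.0785 and 0.0660, with alternatives spanning 0.00796 to 0.488). The CPR6 call was lost without either parental array (adjusted p = 0.0954 and 0.0512) and without snq2Δ replicate 2 (0.0784, with alternatives spanning 0.0149 to 0.674). Without either parental array, and without snq2Δ replicate 2, SBA1 alone was called.

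Between the deletion strains, STI1 and CNS1 passed, 2 of 10 against 49.6% of all genes (23.0% higher, 26.5% lower). CNS1 was lower in erg6Δ, with a difference of -0.62 ± 0.18 (SE; adjusted p = 0.0348), and 9 of 12 alternatives lost that call. With centred arrays CPR6, AHA1 and CDC37 were also higher in erg6Δ (0.51, 0.52 and 0.57; adjusted p = 0.0454, 0.0320 and 0.0477). CNS1 did not pass there (-0.53; adjusted p = 0.0593). Over all genes 3078 were called with centred arrays, against 3153 as deposited. AHA1 and CPR7 were higher in erg6Δ without erg6Δ replicate 2 (adjusted p = 0.0397 and 0.0186, against 0.0564 and 0.102 with all arrays). The CNS1 call was lost without either parental array (adjusted p = 0.0645 each), erg6Δ replicate 1 (0.0970) or snq2Δ replicate 1 (0.128), with alternatives spanning 0.0324 to 0.958.

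For the Hsp90 genes themselves no difference between strains passed. HSC82 differed from the parental by -0.23 (95% confidence interval -0.54 to 0.089) in erg6Δ and by -0.34 (-0.65 to -0.027) in snq2Δ. The latter had an unadjusted p of 0.0379 and an adjusted p of 0.0818. HSP82 differed by -0.24 (-0.87 to 0.39) and -0.14 (-0.77 to 0.49). AHA1 differed by 0.19 (-0.18 to 0.56) and -0.25 (-0.62 to 0.12). The intervals of HSP82 leave room for a response lower by over 1.5-fold, so these tests do not show that the strains respond alike. Of the differences that did not pass, CPR7 in snq2Δ against the parental passed without either erg6Δ array (-0.45; adjusted p = 0.0343 each, with alternatives spanning 0.0343 to 1.00).

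**Figure D3:**
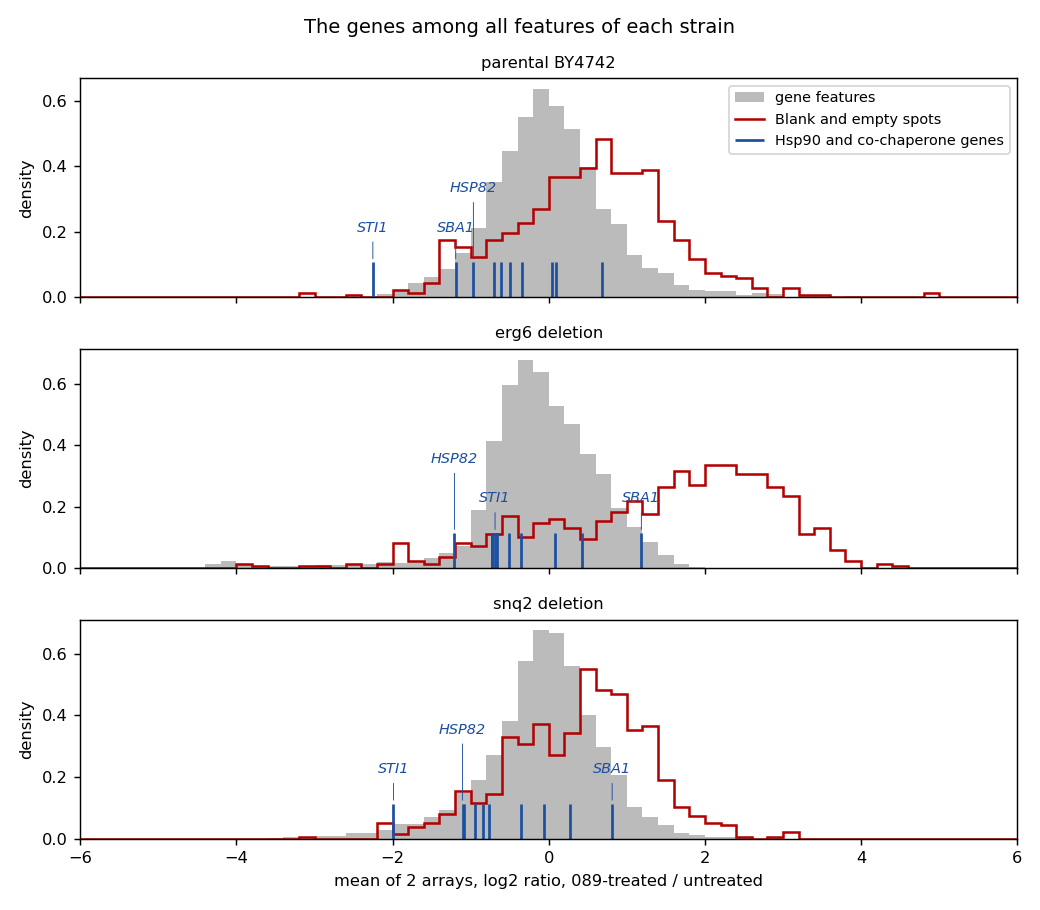
Density (y axis) of the mean log2 ratio of 2 arrays (x axis) for all gene features (grey) and for Blank and empty spots (red line) in each strain, with blue ticks at the 10 genes. Most ticks lie within the spread of the control spots, and STI1 lies at the lower edge in the parental and snq2 deletion strains.

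The spread of spots that name no gene was wide beside these responses. The 683 Blank and empty spots had a central 95% from -1.36 to 2.49 on parental arrays, from -1.87 to 3.57 on erg6Δ arrays and from -1.43 to 2.00 on snq2Δ arrays. STI1 lay below that range in the parental and snq2Δ strains, and the other responses of the 10 genes lay inside it. In the parental strain 0.439% of control spots were below STI1, 5.71% below SBA1, 9.22% below HSP82 and 16.7% below HSC82. In erg6Δ 36.5% of control spots were below SBA1 and 4.39% below HSP82, and in snq2Δ 67.1% were below SBA1. The median control spot lay at 0.57 in the parental strain, 1.76 in erg6Δ and 0.45 in snq2Δ, so it was highest in erg6Δ. Compared with the parental strain, the erg6Δ responses of SBA1, STI1 and CDC37 were higher, while those of CNS1 and HCH1 were lower. SBA1 was also higher than the parental in snq2Δ, where the median control spot was lower. Empty spots had medians of 0.70, 2.11 and 0.55 and Blank spots of -0.29, -0.27 and -0.22, and their part in the strain differences was not tested. The signal of each gene over background could not be computed from ratios, and the part of weak signal in these values was not tested.

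Replicate arrays of the 10 genes differed about as much as those of all genes. The median absolute difference between replicates was 0.13 for the 10 and 0.15 for all genes in the parental strain, 0.20 and 0.20 in erg6Δ, and 0.18 and 0.17 in snq2Δ. HSP82 had the largest replicate difference of the 10 in both deletion strains, at 0.57 and 0.48, and CDC37 in the parental strain, at 0.42.

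Over the 6 arrays, the mean profile of HSC82 and HSP82 read -0.78 and -0.68 in the parental, -0.79 and -1.14 in erg6Δ, and -1.06 and -0.88 in snq2Δ. Among 5826 annotated genes, those outside the 10 with the smallest Euclidean distance to it were IFH1 (0.467), RRN11 (0.475), HXT11 (0.513), KRE29 (0.519) and ROX1 (0.536). IFH1 encodes a coactivator of ribosomal protein genes, RRN11 a subunit of the RNA polymerase I core factor, HXT11 a hexose transporter, KRE29 a subunit of the Smc5-Smc6 complex and ROX1 a repressor of hypoxic genes. HSC82 and HSP82 each lay 0.577 from their own mean, at ranks 9 and 10 among the annotated genes, farther than the genes just named. Of the co-chaperone genes, AHA1 lay nearest at 0.644, rank 15 among the annotated genes, followed by CPR6 at 0.860, rank 51. HCH1 had a distance of 1.18, rank 219. SBA1 lay farthest at 4.03, rank 5259, and STI1 had a distance of 2.62, rank 3274. The distance describes likeness on these 6 arrays alone.

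The 7 other Hsp90 partners examined did not move one way. In the parental strain 2 rose, 2 fell and 3 did not pass, with a median of 0.12. The counts passing, 4 of 7 here and in erg6Δ and 3 of 7 in snq2Δ, were near the 54.0%, 54.7% and 51.5% of all genes called. PPT1, the Hsp90 phosphatase, rose by 1.33 ± 0.38 (SE, n = 2; adjusted p = 0.0323), and TAH1 of the R2TP complex by 0.83 ± 0.09 (adjusted p = 0.00109). The R2TP helicase genes RVB1 and RVB2 fell, at -0.63 ± 0.11 and -0.74 ± 0.12 (adjusted p = 0.00661 and 0.00440). Of these 4 calls, TAH1 held in all alternatives other than the minimum change.

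In erg6Δ 3 of these partners rose, 1 fell and 3 did not pass. PIH1 of R2TP rose by 0.47 ± 0.12 (SE, n = 2; adjusted p = 0.0183), RVB2 by 0.38 ± 0.12 (adjusted p = 0.0441) and SGT1, an Hsp90 adaptor of kinetochore and ubiquitin ligase complexes, by 0.31 ± 0.09 (adjusted p = 0.0350). TOM70, a mitochondrial import receptor on which chaperones dock, fell by 0.27 ± 0.08 (adjusted p = 0.0343). That call was lost in 11 of 12 alternatives, among them centred arrays (adjusted p = 0.132). In snq2Δ TAH1 rose (0.32 ± 0.09) and RVB1 (-0.73 ± 0.11) and RVB2 (-0.48 ± 0.12) fell (adjusted p = 0.0296, 0.00424 and 0.0212), and 4 did not pass. PPT1 in snq2Δ passed in opposite directions without replicate 1 (-1.04; adjusted p = 0.0144) and without replicate 2 (0.70; adjusted p = 0.0406). None of the 7 calls with all arrays in the deletion strains held in all alternatives other than the minimum change.

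HSF1, which encodes the heat shock factor, had replicate ratios of -0.79 and -0.70 in parental cells, 1.04 and 0.37 in erg6Δ and 0.086 and 0.016 in snq2Δ. The strains did not overlap, with the parental arrays lowest. HSF1 fell in the parental strain by 0.75 ± 0.16 (SE, n = 2; adjusted p = 0.0128) and rose in erg6Δ by 0.70 ± 0.16 (adjusted p = 0.0160). In erg6Δ minus parental, SBA1, STI1 and CDC37 were higher, CNS1 and HCH1 were lower, and the other 5 of the 10 genes did not pass. Those 5 included HSP82 and HSC82, and any link of these differences to HSF1 was not tested. The erg6Δ response of HSF1 was higher than the parental by 1.45 ± 0.23 (adjusted p = 0.00391), which held in all 12 alternatives. The snq2Δ response was higher than the parental by 0.80 ± 0.23 (adjusted p = 0.0439), a call lost when any parental or snq2Δ array was left out (adjusted p from 0.129 to 0.167), with the replicate block (0.0546) and with quantile normalization (0.0541, with alternatives spanning 0.00570 to 0.710). Each parental replicate left out ended the parental call (adjusted p = 0.110 and 0.0796, with alternatives spanning 0.00124 to 0.623). The erg6Δ call did not survive leaving out its replicate 1 (adjusted p = 0.0576, with alternatives spanning 0.00344 to 0.898).

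Among 6 genes for known clients of Hsp90, 2 fell and 4 did not pass in the parental strain, 2 rose, 1 fell and 3 did not pass in erg6Δ, and 1 rose, 2 fell and 3 did not pass in snq2Δ. These shares of 6 genes were at or below those of all genes called, which were 54.0%, 54.7% and 51.5%. SLT2, the kinase of the cell wall integrity pathway, had replicate ratios of -1.14 and -1.05 in parental cells, -0.80 and -0.38 in erg6Δ and -2.95 and -3.78 in snq2Δ. It fell in the parental strain (-1.09 ± 0.21, SE, n = 2; adjusted p = 0.00840) and in snq2Δ (-3.37 ± 0.21; adjusted p = 0.000291). The erg6Δ response of SLT2, -0.59 ± 0.21, did not pass (adjusted p = 0.0621). It passed with quantile normalization (-0.62; adjusted p = 0.0204). HAP1, the haem-responsive factor, rose by 0.93 ± 0.13 (adjusted p = 0.00293) in erg6Δ and fell by 0.62 ± 0.13 (adjusted p = 0.0112) in snq2Δ. STE11, a kinase of the mating pathway, rose by 0.94 ± 0.11 (adjusted p = 0.00186) and 0.58 ± 0.11 (adjusted p = 0.00821) in these strains. GCN2, the eIF2 alpha kinase, fell in the parental strain by 0.53 ± 0.11 (adjusted p = 0.00961), and CMP2, a catalytic subunit of calcineurin, fell in erg6Δ by 0.42 ± 0.10 (adjusted p = 0.0172). SWE1, the Wee1 kinase, passed in no strain, with replicates as far apart as 0.30 and -0.65 in the parental strain. Of these calls, HAP1 and STE11 in erg6Δ and SLT2 in snq2Δ held in all alternatives other than the minimum change.

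Of the 14 genes for the Hsp70, Hsp40, Hsp104 and small heat shock proteins that work beside Hsp90, 10 fell and 4 rose in the parental strain, 8 fell, 1 rose and 5 did not pass in erg6Δ, and 9 fell, 2 rose and 3 did not pass in snq2Δ. Their medians were -0.69, -0.60 and -1.25, beside -0.55, -0.59 and -0.80 for the 10 genes of the Hsp90 and co-chaperone list. Of all genes, 54.0%, 54.7% and 51.5% were called in these strains, with 26.7%, 31.5% and 26.2% lower. In the parental strain the Hsp110 gene SSE2 (-1.24 ± 0.09), the disaggregase gene HSP104 (-1.02 ± 0.08), the Hsp40 gene SIS1 (-0.99 ± 0.08) and the Hsp70 gene SSA2 (-0.97 ± 0.08) were among those that fell (SE, n = 2; adjusted p = 0.000387, 0.000425, 0.000447 and 0.000447). In erg6Δ the heat-inducible Hsp70 gene SSA4 (-1.65 ± 0.10), the Hsp40 gene YDJ1 (-1.58 ± 0.10), the nucleotide exchange factor gene FES1 (-1.22 ± 0.08) and the Hsp110 gene SSE1 (-1.17 ± 0.10) fell (adjusted p = 0.000369, 0.000468, 0.000471 and 0.000825). In snq2Δ SSE1 (-2.16 ± 0.10), SSA4 (-2.07 ± 0.10) and SSA2 (-1.68 ± 0.08) fell, whereas the small heat shock protein gene HSP26 rose (2.02 ± 0.09) (adjusted p = 0.000166, 0.000167, 0.000167 and 0.000167). Calls that held in all alternatives other than the minimum change numbered 9 of 14, 7 of 9 and 10 of 11 in the 3 strains.

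**Figure D4:**
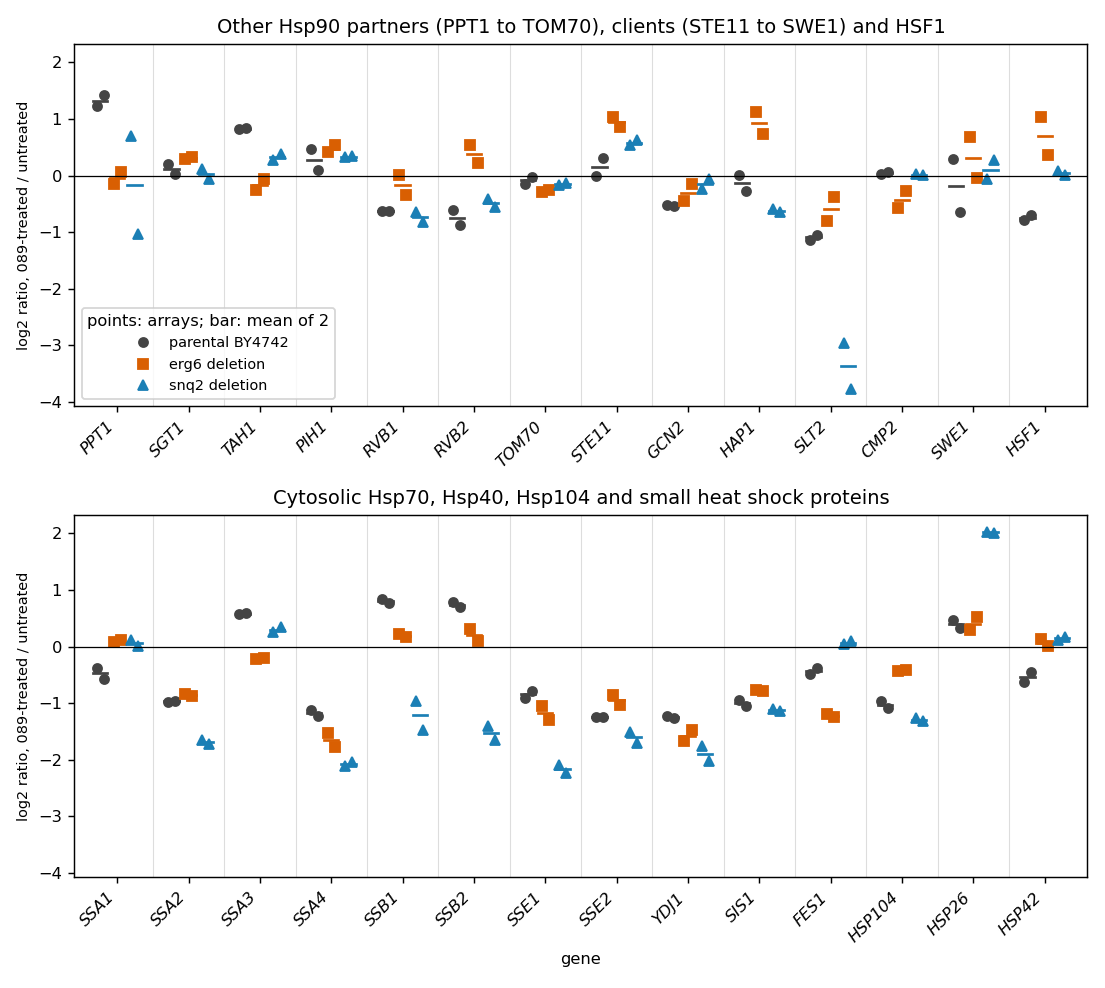
Log2 ratio of treated over untreated cells (y axis) for genes of other Hsp90 partners, clients and HSF1 (upper panel) and of Hsp70, Hsp40, Hsp104 and small heat shock proteins (lower panel), with 1 point per array and a bar at the mean of 2 arrays. HSF1 lies below 0 on both parental arrays and above 0 on the erg6 deletion arrays, and SLT2 lies below -2.9 on both snq2 deletion arrays.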

How the data were processed

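For each feature and array the authors deposited a signed value, taken here as the log2 ratio of 089-treated (Cy5) over untreated (Cy3) cells. The scanner was a GenePix 4000B, per the labels. Not given in the sources used here are the background correction, normalization, filters, log base and direction. Of 7045 features, with 0 values missing, 144 Blank and 539 empty spots were set aside as control spots, and 5826 of the other 6362 had a locus tag in RefSeq assembly R64. The means of the 3 strains were estimated together with limma 3.58.1 under R 4.3.3 (lmFit, then eBayes, with 3 residual and 2.45 prior degrees of freedom). Each comparison was adjusted over its 6362 genes by Benjamini-Hochberg, and a gene passed at an adjusted p under 0.05. The script was tested on simulated data. P-values rest on the spread between arrays, taken as equal in the 3 strains, and the small number of arrays limits the precision. Members and lists were chosen with earlier results of these data known. Named genes are the 10, the partner and client lists, HSF1, the 4 smallest p of the Hsp70 list, the 5 nearest profiles, ERG6 and SNQ2. The alternatives were centring, quantile normalization, a replicate block, each array left out, the compared strains alone, robust eBayes and a minimum change of 1.5-fold. Sequences and promoter motifs were not analysed here.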

Additional observations from a re-analysis of the deposited data

Results flagged for a closer look

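In all, 10 strain differences among the 10 genes passed the test of the difference itself, and each is given on the log2 scale as the first strain minus the other. Of all genes, 56.8% passed in erg6Δ minus parental, 39.2% in snq2Δ minus parental and 49.6% in erg6Δ minus snq2Δ. The difference erg6Δ minus parental was 2.378 for SBA1, 1.565 for STI1, 1.028 for CDC37, -0.7683 for HCH1 and -1.038 for CNS1. The difference snq2Δ minus parental was 2.004 for SBA1, -0.7363 for CPR6 and -0.8086 for HCH1. The difference erg6Δ minus snq2Δ was 1.301 for STI1 and -0.6196 for CNS1. The listed calls of SBA1 and STI1 held in all 12 alternatives. CNS1 between the deletion strains lost its call in 9, and HCH1 and CPR6 in snq2Δ minus parental in 5 and 4. For erg6Δ minus parental, HCH1 lost its call in 2 alternatives, and CNS1 and CDC37 each in 1. The responses of SBA1 had opposite signs, with all 4 deletion arrays above 0 and both parental arrays below 0. CDC37 was also called in opposite directions in different strains, as were 23.9% of all genes. The differences from the parental strain share its 2 arrays.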

How the results depend on the processing

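Over all refits of the 10 genes, 632 kept direction and side of the threshold, 58 lost a call, 16 gained one and 14 changed sign. Counts of called genes are given in the order parental, erg6Δ and snq2Δ responses, then erg6Δ minus parental, snq2Δ minus parental and erg6Δ minus snq2Δ. With a minimum change of 1.5-fold, which asks for a larger change, they were 2, 1, 2, 2, 1 and 1 of the 10. The last count, 2 as reported, became 4 with centred arrays and 1 with quantile normalization, the replicate block or those strains alone, and the cause was not tested. Leaving out 1 array at a time gave 3 to 8, 6 to 8, 5 to 8, 4 to 5, 1 to 4 and 1 to 4. The labels tie no replicate number to a shared batch, and deviations of arrays with equal numbers correlated at 0.095, -0.042 and -0.0020. The replicate block gave 8, 7, 7, 5, 3 and 1, ending the calls of CDC37 in erg6Δ (adjusted p = 0.0573) and of CNS1 between the deletion strains (0.0533). All 14 sign changes were of values that did not pass. Over the arrays left out, parental HCH1 ran from -0.069 to 0.15, CPR7 in erg6Δ from -0.16 to 0.31 and CDC37 in snq2Δ from -0.15 to 0.013. For erg6Δ minus parental, CPR7 ran from -0.25 to 0.22, with 0.00071 without parental replicate 1, and HSP82 from -0.53 to 0.043. CPR7 was 0.072 there with centred arrays and 0.064 with quantile normalization. HSP82 in snq2Δ minus parental ran from -0.38 to 0.10. Between the deletion strains HSP82 ran from -0.39 to 0.18, with 0.13 without snq2Δ replicate 2, and HCH1 from -0.13 to 0.21, with -0.026 without snq2Δ replicate 1 and -0.020 under quantile normalization.

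The same alternatives for the related genes, chosen after seeing the data, changed sign 12 times. With centred arrays PPT1 in erg6Δ was 0.063, and with quantile normalization it was 0.010 and CMP2 in snq2Δ -0.0088. Over the parental arrays left out, STE11 ran from -0.014 to 0.31, HAP1 from -0.27 to 0.0086 and SWE1 from -0.65 to 0.30. In erg6Δ, PPT1 ran from -0.16 to 0.068, SWE1 from -0.044 to 0.67 and RVB1 from -0.35 to 0.0082. In snq2Δ, PPT1 ran from -1.04 to 0.70, past the threshold at both ends (adjusted p = 0.0144 and 0.0406), SGT1 from -0.068 to 0.12 and SWE1 from -0.065 to 0.27. The replicate block ended the calls of TOM70 in erg6Δ (adjusted p = 0.0565) and of HSF1 in snq2Δ minus parental (0.0546). Over all genes, calls numbered 3434, 3478, 3276, 3615, 2495 and 3153, against 988, 612, 857, 1696, 702 and 984 with the minimum change. An array left out gave 1914 to 3829, 2943 to 3192, 1672 to 3656, 2613 to 3665, 1202 to 2889 and 1952 to 3095, and erg6Δ alone gave 1946. Turning every sign would turn each direction and no p, and was not refitted.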
